A study of Homo sapiens with 6 samples.

Results

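The genes described here are 42 genes of the lysosome, which encode cathepsins and other peptidases, glycosidases, sulfatases, lipid hydrolases and their helpers, membrane proteins of the organelle and the TFE transcription factors. They were taken by gene symbol from a list of names, and all 42 stand among the 26364 genes of the authors' deposited table. RNA came from REH, an established human leukaemia line (B-cell precursor ALL). For 3 libraries the cells were transduced by lentivirus with a short hairpin RNA against STAT3 (shSTAT3) and for the other 3 with a scramble hairpin, each replicate being an independent experiment. All 6 cultures were transduced, selected in puromycin for 3 days and cleared of dead cells before RNA extraction, and the comparison has no untransduced culture. How many hairpin sequences were used, and whether single clones were grown, is not given in the sources used here. Per gene, the authors' deposited table gives a mean over all 6 libraries, the log2 fold change between the groups (log2 change below), its p and the adjusted p. It has no value per library, so levels are given as that mean and group differences as fold changes of shSTAT3 over scramble.

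Lysosomes break down proteins, glycans, lipids and nucleic acids in an acid lumen. Soluble hydrolases reach them from the Golgi on mannose 6-phosphate receptors, and the proton pump of the limiting membrane, the V-ATPase, keeps the lumen acid. TFEB, TFE3 and MITF are basic helix-loop-helix factors that bind the E-box CACGTG, and many lysosomal genes carry it in their promoters, in an extended form known as the CLEAR element. When nutrients are plentiful, mTORC1 on the lysosomal surface keeps these factors in the cytosol by phosphorylation, which involves the Rag GTPases, the Ragulator complex and folliculin. In B-lineage cells lysosomal peptidases also process antigen and the invariant chain of HLA class II.

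The promoter stretches of 9 members are printed first, since E-boxes are the sequence feature by which lysosomal genes are known as a group. RefSeq windows of 300 bases, from 250 before to 50 after an annotated transcript start (GRCh38.p14), were at hand for 32 of the 42 members, and 10 of these hold CACGTG, a motif that reads the same on both strands. The first 8 lines are the members with the smallest adjusted p among those called between shSTAT3 and scramble that hold the E-box. MCOLN1, which was not called, was added after its values were seen. Each line is 1 stretch of 30 bases, 5′ to 3′ on the strand of the gene, around the copy of the E-box that best matches the CLEAR form (CACGTG with GT before it and AC after it), with the E-box in capitals.
CTSA: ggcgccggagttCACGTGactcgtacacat
LAMP1: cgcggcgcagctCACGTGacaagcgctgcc
CTSD: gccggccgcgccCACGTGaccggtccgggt
CLN3: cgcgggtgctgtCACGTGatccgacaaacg
NEU1: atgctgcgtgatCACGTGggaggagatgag
GAA: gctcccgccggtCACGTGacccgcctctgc
GALNS: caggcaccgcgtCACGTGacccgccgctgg
CD63: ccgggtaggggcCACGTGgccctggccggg
MCOLN1: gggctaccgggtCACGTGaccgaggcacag

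The stretches of GAA (chr17:80101538-80101567), GALNS (chr16:88857104-88857133) and MCOLN1 (chr19:7522598-7522627) hold all 10 letters of the CLEAR form, those of CTSA (chr20:45891298-45891327), LAMP1 (chr13:113297226-113297255) and CLN3 (chr16:28492058-28492087) hold 9, and those of CTSD (chr11:1763957-1763986) and CD63 (chr12:55729172-55729201) hold 8. NEU1 (chr6:31862930-31862959) holds 7. The window of LAMP1 holds 6 copies of the E-box, more than that of any other member with a window. Those of CTSA, GAA, GALNS, CLN3 and MCOLN1 hold 2 copies each. For CD63 only 1 of 8 annotated starts has an E-box in its window. ARSB is the tenth member with an E-box, in 1 of its 2 windows.

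Most of the lysosomal genes that changed were higher in shSTAT3 cells. Of the 40 members with an adjusted p, 19 rose and 3 fell at an adjusted p under 0.05 by the DESeq2 test of the authors' deposited table, and 18 were not called. These are 47.5% of the tested members higher and 7.5% lower, where 21.3% and 23.2% of all 12061 tested genes were called in those directions and 44.5% in either. The median log2 fold change of the tested members was 0.22, against 0.0027 over all tested genes. At a fold of at least 1.5, 7 members rose and 1 fell, where 6.96% and 10.4% of all tested genes passed these limits. Members and lists were chosen with earlier results of these data known, so these counts describe the list and are no test of it. Without the 11 members whose exons overlap those of another gene, a setting chosen after seeing the data, 13 rose and 3 fell.

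**Figure D1:**
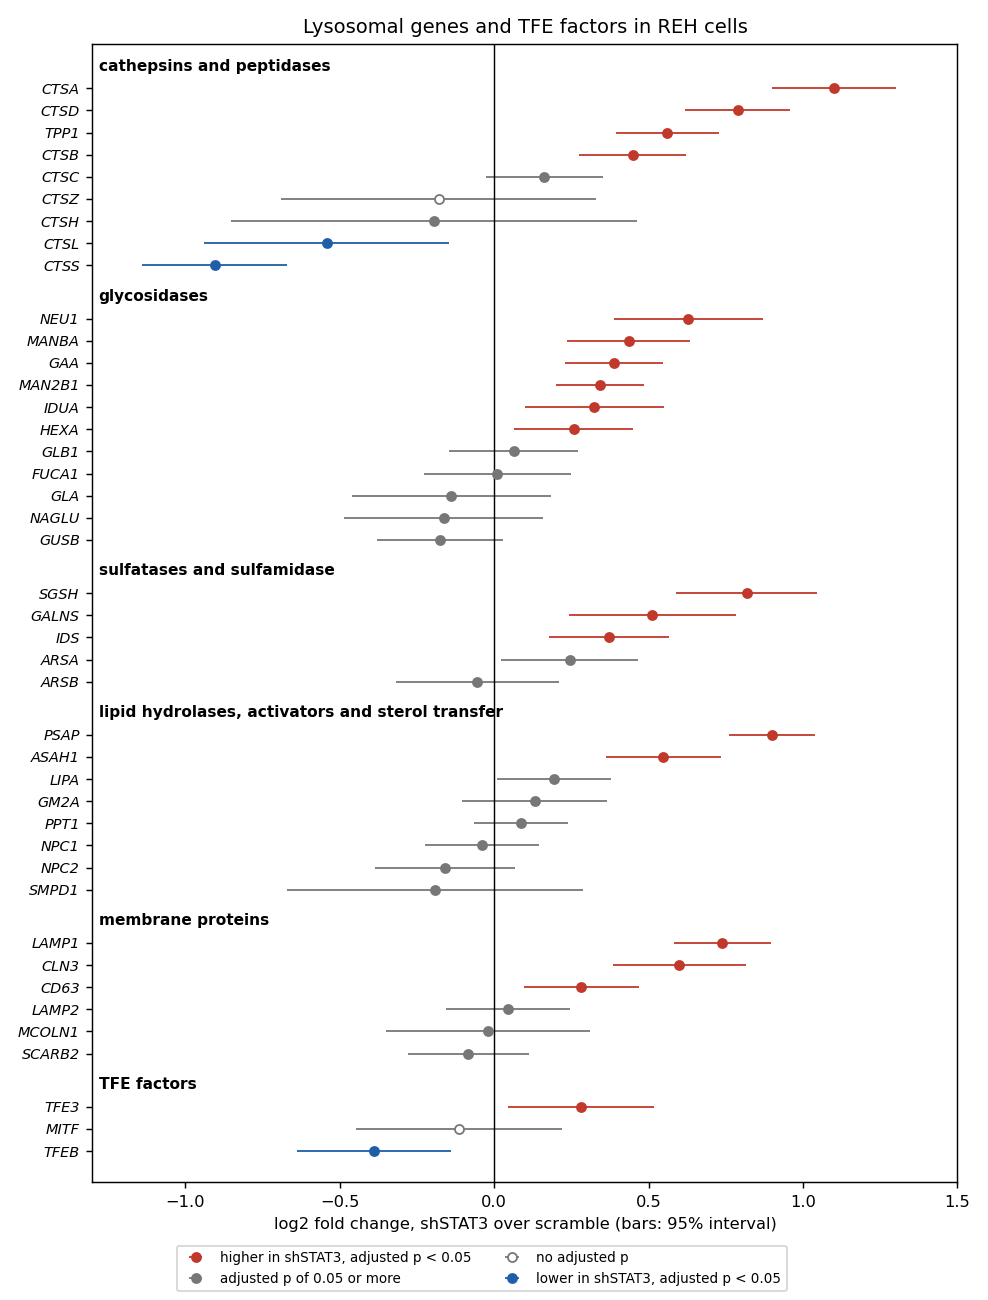
Log2 fold change of each of the 42 members (shSTAT3 over scramble, horizontal axis) by role, with its 95% interval. Red points are the 19 members that rose, blue points the 3 that fell (CTSS, CTSL and TFEB), grey points were not called and the open points of CTSZ and MITF have no adjusted p.

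The hairpin's target, STAT3, stood at 29.8% of its scramble level in shSTAT3 cells by the authors' deposited table (adjusted p = 7.78e-74), and the sign of all fold changes was read from it. The B-cell precursor label fitted the markers RAG1, DNTT and PAX5, the highest of 12 listed. Their means were 20516, 16549 and 10140 normalized counts per the authors' deposited table, while VPREB1 is listed at 0 and CD34 at 1.35. Of the 10 tested markers of this list 2 rose (20%) and 5 fell (50%), where 21.3% and 23.2% of all tested genes were called in those directions. RAG1 and DNTT fell and PAX5 rose, with log2 changes of −0.21, −0.23 and 0.32 by the authors' deposited table. Monocytes and macrophages are rich in lysosomes, and of 14 of their markers MPO, AIF1 and ITGAM had the highest means, at 2330, 587 and 410 normalized counts per the authors' deposited table, and MARCO is listed at 0. MSR1, CST3 and CSF1R had means of 156, 128 and 88.9 by the authors' deposited table. S100A9, LYZ, S100A8, CD14, CD163, FCGR1A and FCGR3A had 22.2, 16.0, 9.25, 6.66, 2.31, 1.58 and 0.18. The means of the 14 sum to 3759 normalized counts, of which MPO gives 2330. Among the 6 of them tested, ITGAM rose and MSR1, CST3 and CSF1R fell, and the part of such cells in the results was not tested. RNA was taken from whole cultures, in which fewer cells of a type and less RNA per cell cannot be told apart.

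The peptidases moved both ways. Of 8 tested, 4 rose (50%) and 2 fell (25%), where 21.3% and 23.2% of all tested genes were called in those directions. The share that fell is thus near that of all tested genes. CTSA, on chromosome 20 from 45890144 to 45898820 (GRCh38, GENCODE release 29), encodes the serine carboxypeptidase that holds beta-galactosidase and neuraminidase in a complex. It rose 2.15-fold, the largest fold of the 42, per the authors' deposited table (log2 change 1.10, 95% interval 0.90 to 1.30, adjusted p = 3.43e-25). Of the exon bases of CTSA, 17.7% overlap NEURL2 and 3.42% overlap PLTP on the other strand. Their means were 21.0 and 1.80 normalized counts by the authors' deposited table. CTSD, the main aspartic peptidase of the lysosome, rose 1.73-fold per the authors' deposited table (log2 change 0.79, 95% interval 0.62 to 0.96, adjusted p = 4.04e-18). The intervals given here were computed from the same p-values as the calls, so they add no separate support to them.

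TPP1, the tripeptidyl peptidase lost in a neuronal ceroid lipofuscinosis, rose 1.47-fold in the same comparison of the authors' deposited table (log2 change 0.56, 95% interval 0.39 to 0.73, adjusted p = 6.29e-10). CTSB, a cysteine cathepsin, rose 1.37-fold by the authors' deposited table (log2 change 0.45, 95% interval 0.28 to 0.62, adjusted p = 2.59e-06). CTSC, which trims the N-termini of granule serine proteases, was not called, at a log2 change of 0.16 and an adjusted p of 0.165 by the authors' deposited table. The cysteine cathepsins did not share a direction, as CTSB rose while CTSS and CTSL fell.

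CTSS, the cathepsin that cuts the invariant chain in antigen-presenting cells, fell to 53.4% of its scramble level per the authors' deposited table (log2 change −0.90, 95% interval −1.14 to −0.67, adjusted p = 8.3e-13). CTSL, a broad cysteine endopeptidase, fell to 68.7% by the authors' deposited table (log2 change −0.54, 95% interval −0.94 to −0.14, adjusted p = 0.0196), with a mean of only 88.7 normalized counts. No other cathepsin in the list was called lower. Among the monocyte and macrophage markers, MSR1, CST3 and CSF1R also fell, to 60.1%, 59.4% and 57.1% of scramble per the authors' deposited table. Of the other 3 tested markers of that list, ITGAM rose, with a log2 change of 0.33 by the authors' deposited table (adjusted p = 0.0217), and AIF1 and MPO were not called, at 0.11 and −0.24 (adjusted p = 0.402 and 0.33). CTSH, an aminopeptidase, had a mean of 12.3 normalized counts and a log2 change of −0.19 by the authors' deposited table (adjusted p = 0.67). CTSZ, a carboxypeptidase, had a mean of 3.57 normalized counts, a log2 change of −0.18 and no adjusted p by the authors' deposited table, so it was not called either way.

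Glycosidases were higher or not called. Of 11 tested, 6 rose (54.5%) and none fell, where 21.3% and 23.2% of all tested genes were called in those directions. NEU1, the neuraminidase that CTSA protects, rose 1.55-fold per the authors' deposited table (log2 change 0.63, 95% interval 0.39 to 0.87, adjusted p = 2.31e-06). MANBA, the beta-mannosidase, rose 1.35-fold by the authors' deposited table (log2 change 0.44, 95% interval 0.24 to 0.64, adjusted p = 9.02e-05). GAA, the acid alpha-glucosidase that digests glycogen, rose 1.31-fold by the authors' deposited table (log2 change 0.39, 95% interval 0.23 to 0.55, adjusted p = 9.06e-06). MAN2B1, the alpha-mannosidase, was the most abundant glycosidase per kilobase of transcript and rose 1.27-fold per the authors' deposited table (log2 change 0.34, 95% interval 0.20 to 0.49, adjusted p = 1.63e-05).

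IDUA, the iduronidase of heparan and dermatan sulfate breakdown, rose 1.25-fold by the authors' deposited table (log2 change 0.32, 95% interval 0.10 to 0.55, adjusted p = 0.0126). Its exons share 13.4% of their bases with SLC26A1 on the other strand, which had a mean of 8.91 normalized counts by the authors' deposited table. HEXA, the alpha chain of beta-hexosaminidase, rose 1.20-fold per the authors' deposited table (log2 change 0.26, 95% interval 0.06 to 0.45, adjusted p = 0.0232), and lost the call when fold changes were centred on genes of like GC content (adjusted p = 0.0872). The complex that CTSA holds was uneven, since CTSA and NEU1 rose and GLB1, its beta-galactosidase, was not called, with a log2 change of 0.06 and an interval of −0.15 to 0.27 by the authors' deposited table.

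Of the other glycosidases, FUCA1 (fucosidase), GLA (alpha-galactosidase), NAGLU (an N-acetylglucosaminidase of heparan sulfate breakdown) and GUSB (beta-glucuronidase) had log2 changes of 0.01, −0.14, −0.16 and −0.17 by the authors' deposited table, with adjusted p of 0.951, 0.523, 0.442 and 0.168. All 4 intervals include 0, and the lowest bound among them is −0.49, that of NAGLU. GUSB has many pseudogenes, so its count depends on how shared reads were assigned.

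Among the sulfatases and the sulfamidase, 3 of 5 rose (60%) and none fell, against 21.3% and 23.2% of all tested genes. SGSH, the sulfamidase of heparan sulfate breakdown, rose 1.76-fold per the authors' deposited table (log2 change 0.82, 95% interval 0.59 to 1.05, adjusted p = 3.34e-11). GALNS, which removes sulfate from keratan sulfate and chondroitin 6-sulfate, rose 1.43-fold by the authors' deposited table (log2 change 0.51, 95% interval 0.24 to 0.78, adjusted p = 0.000779). IDS, the iduronate sulfatase, rose 1.29-fold by the authors' deposited table (log2 change 0.37, 95% interval 0.18 to 0.56, adjusted p = 0.000674), and has a pseudogene copy nearby. The enzymes of heparan sulfate breakdown in the list thus gave 3 higher genes, SGSH, IDS and IDUA, while NAGLU and GUSB were not called.

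ARSA, the arylsulfatase that acts on sulfatide, had a log2 change of 0.24 and an adjusted p of 0.064 by the authors' deposited table, just past the threshold. ARSB, which acts on dermatan and chondroitin sulfate, was at −0.05 with an adjusted p of 0.774 by the authors' deposited table.

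Lipid hydrolases, activators and sterol transfer proteins gave 2 calls in 8 tested genes, both higher, a share of 25% that is near the 21.3% of all tested genes. PSAP, on chromosome 10 from 71816298 to 71851375, encodes the precursor of the saposins, the small proteins that present sphingolipids to hydrolases. It had the highest mean of the 42 genes, 3858 normalized counts, and the smallest p of them, rank 72 of all tested genes. PSAP rose 1.87-fold per the authors' deposited table (log2 change 0.90, 95% interval 0.76 to 1.04, adjusted p = 4.07e-35). ASAH1, the acid ceramidase, rose 1.46-fold by the authors' deposited table (log2 change 0.55, 95% interval 0.36 to 0.73, adjusted p = 8.37e-08).

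LIPA, the acid lipase that frees cholesterol from its esters, missed the threshold at a log2 change of 0.19 and an adjusted p of 0.0796 by the authors' deposited table. The sterol carriers NPC2 and NPC1, which pass that cholesterol out of the lysosome, were at −0.16 and −0.04 on the log2 scale by the authors' deposited table (adjusted p = 0.262 and 0.766), and their intervals include 0. GM2A, the activator that HEXA needs for GM2 ganglioside, was at 0.13 with an adjusted p of 0.386 by the authors' deposited table. PPT1, the palmitoyl thioesterase, was at 0.09 with an adjusted p of 0.373 by the authors' deposited table. Of its exon bases 23.4% overlap CAP1 on the other strand, whose mean of 2798 normalized counts is higher than the 1486 of PPT1 by the authors' deposited table. SMPD1, the acid sphingomyelinase, had a mean of 54.3 normalized counts and a log2 change of −0.19 by the authors' deposited table, with a wide interval of −0.67 to 0.29 and an adjusted p of 0.555.

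Of 6 membrane proteins 3 rose (50%) and none fell, against 21.3% and 23.2% of all tested genes. LAMP1, on chromosome 13 from 113297241 to 113323672, is with LAMP2 the main glycoprotein lining of the membrane. LAMP1 rose 1.67-fold per the authors' deposited table (log2 change 0.74, 95% interval 0.58 to 0.90, adjusted p = 1.26e-18). LAMP2 was at a log2 change of 0.04 by the authors' deposited table, with an interval of −0.16 to 0.25 that lies wholly below that of LAMP1 (adjusted p = 0.752). No test of the difference between these genes was made, as the table has no values per library.

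CLN3, the membrane protein lost in juvenile ceroid lipofuscinosis, rose 1.51-fold per the authors' deposited table (log2 change 0.60, 95% interval 0.38 to 0.81, adjusted p = 4.23e-07). CD63, a tetraspanin of late endosomes and exosomes, rose 1.22-fold by the authors' deposited table (log2 change 0.28, 95% interval 0.10 to 0.47, adjusted p = 0.00906), and lost the call when centred on genes of like GC content (adjusted p = 0.083). SCARB2, the receptor that carries glucocerebrosidase to the lysosome, and the calcium channel MCOLN1 were at −0.08 and −0.02 on the log2 scale by the authors' deposited table (adjusted p = 0.526 and 0.934).

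The TFE factors went in opposite directions. TFEB, on chromosome 6 from 41683978 to 41736259, fell to 76.3% of its scramble level per the authors' deposited table (log2 change −0.39, 95% interval −0.64 to −0.14, adjusted p = 0.00681). TFE3, on the X chromosome from 49028726 to 49043486, rose 1.22-fold by the authors' deposited table (log2 change 0.28, 95% interval 0.05 to 0.52, adjusted p = 0.0438). The call of TFE3 was lost when p was adjusted over every gene with a p (adjusted p = 0.0635) and when fold changes were centred on genes of like GC content (adjusted p = 0.156), while TFEB was called in each of these. MITF had a mean of 0.79 normalized counts, a log2 change of −0.11 and no adjusted p by the authors' deposited table, so no direction can be given. These are transcript levels, and where the proteins lay in the cell was not measured.

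**Figure D2:**
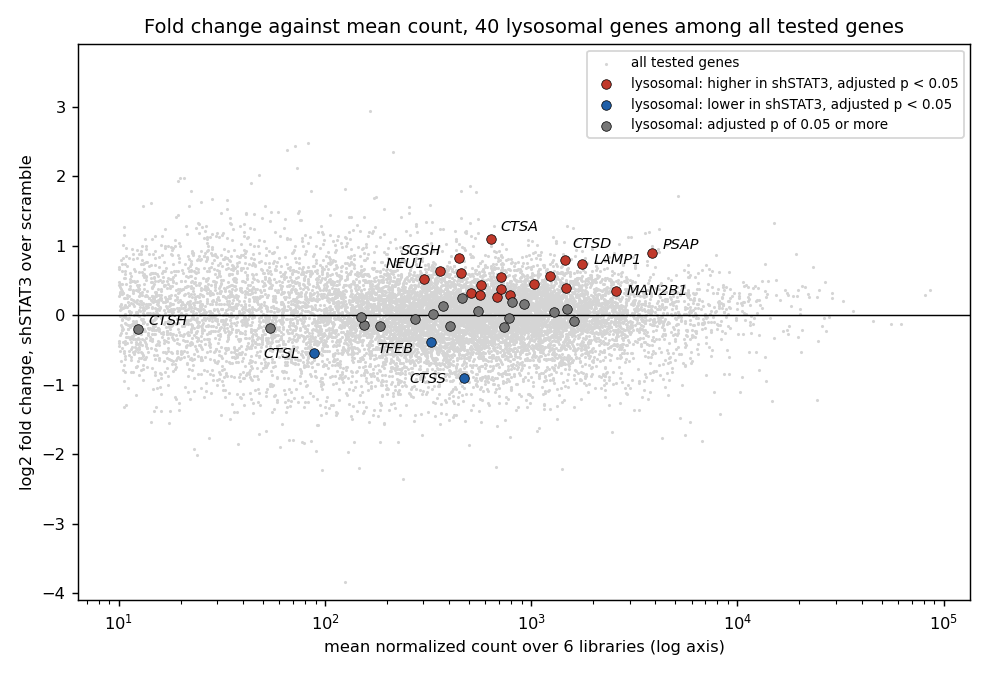
Log2 fold change (shSTAT3 over scramble) against the mean normalized count over 6 libraries on a log axis, for the 40 tested members in colour and all 12061 tested genes in grey. CTSA (1.10) has the highest fold change of the members and CTSS (−0.90) the lowest, and PSAP (mean 3858, fold change 0.90) lies farthest to the right.

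Levels per kilobase of the longest principal transcript spanned several orders of magnitude. PSAP came first, with a mean of 1343 normalized counts per kilobase over the 6 libraries, followed by MAN2B1 at 809, CTSD at 689, LAMP1 at 656 and CD63 at 639. All 5 of these most abundant members rose, but below them CTSC at 480 and NPC2 at 390 were not called, while GAA at 406 rose. The median of the tested members was 194 normalized counts per kilobase, against 133 for all tested genes. At the low end, SMPD1 had 24.8, CTSH 5.63, CTSZ 2.39 and MITF 0.16 normalized counts per kilobase. SMPD1 and CTSH were not called, and CTSZ and MITF have no adjusted p. CTSL, next above them at 40.8, fell. TFE3 and TFEB were at like levels, with 165 and 139 normalized counts per kilobase.

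**Figure D3:**
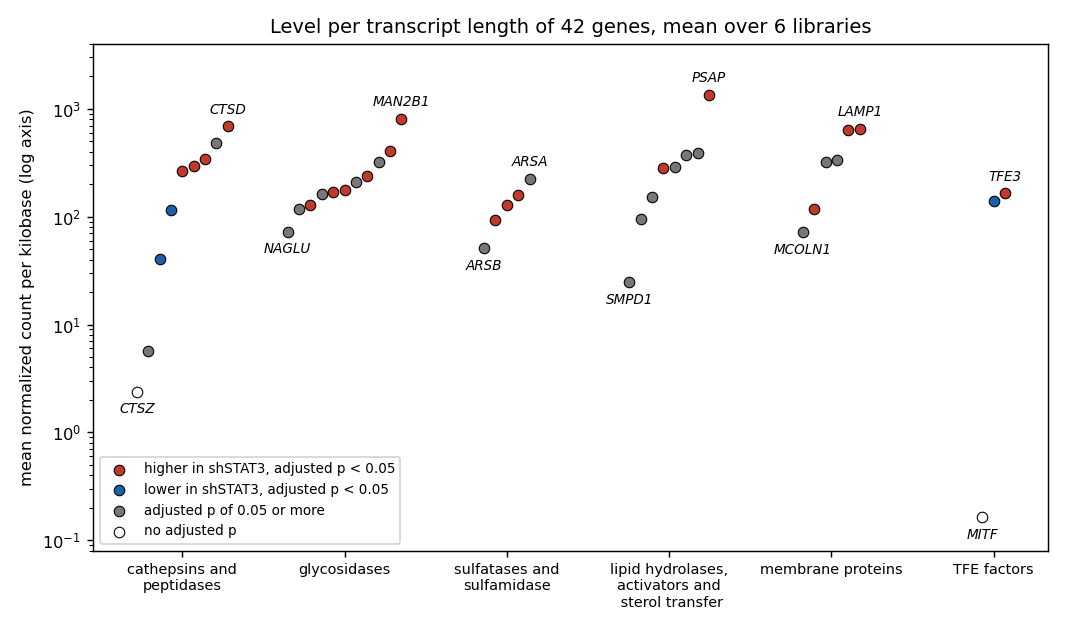
Mean normalized count per kilobase of transcript over the 6 libraries (log axis) for the 42 members by role, coloured by call. PSAP (1343) is highest and MITF (0.16) lowest, and the cathepsins span from CTSZ at 2.39 to CTSD at 689.

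E-boxes were read against these calls. Of the 13 members that rose and have a RefSeq window, 8 hold CACGTG, against 2 of 15 that were not called and 0 of 2 that fell (TFEB and CTSL). The motif was found in 10 of the 32 members with a window and in 12.7% of the 9059 tested genes with a window. Of the latter it was in 14.7% of 1901 that rose, 12.9% of 4977 not called and 10.3% of 2181 that fell. Counted per window and not per gene, it was in 7.26% of all 35116 windows, a share not like the others. With GT before and AC after, the motif was found in GAA, GALNS and MCOLN1 among the members, which is 3 of 32 with a window. That form was in 0.916% of the 9059 tested genes with a window and 1.26% of those that rose. Counted per window, it was in 0.353% of all windows. GAA and GALNS rose and MCOLN1, with the same 10 letters, did not pass, so holding the motif did not go with a call in every member. Genes with several annotated starts, such as CD63, have more windows in which to find it. The members TPP1, MAN2B1, IDS, IDUA and TFE3 rose and have no E-box within these windows. PSAP, SGSH, ASAH1, CTSB, MANBA and HEXA, which rose, and CTSS, which fell, had no window, so their promoters were not read. A match is a description of the letters and was not tested as a binding site.

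Other lysosomal genes, from 5 lists fixed by name, were read in the same way. Of 22 tested other hydrolases 8 rose (36.4%) and 2 fell (9.09%), where 21.3% and 23.2% of all tested genes were called in those directions. PLBD2, a phospholipase B-like protein, rose 2.32-fold per the authors' deposited table (adjusted p = 7.46e-22). RNASET2, an acid ribonuclease, rose 1.68-fold by the authors' deposited table (adjusted p = 4.14e-12). Of 19 tested other membrane proteins 5 rose, a share of 26.3% that is near the 21.3% of all tested genes, and none fell. Those that rose include the chloride-proton exchanger CLCN7 and its partner OSTM1, at 1.61-fold and 1.64-fold by the authors' deposited table (adjusted p = 1.59e-16 and 4.38e-06). The sialic acid exporter SLC17A5 rose 1.62-fold by the authors' deposited table (adjusted p = 9.28e-06).

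Among 12 tested genes of enzyme sorting and maturation, 6 rose (50%) and 2 fell (16.7%). Of all tested genes, 21.3% and 23.2% were called in those directions. GNPTAB, which encodes the transferase that starts the mannose 6-phosphate tag, rose 1.69-fold per the authors' deposited table (adjusted p = 2.79e-14), and CLN8, which helps move new enzymes out of the endoplasmic reticulum, rose 1.76-fold (adjusted p = 8.17e-08). M6PR, the small mannose 6-phosphate receptor, fell to 71.7% of scramble by the authors' deposited table (adjusted p = 1.16e-06). IGF2R, the other mannose 6-phosphate receptor, named after its value was seen, had a higher mean than M6PR (3044 against 999 normalized counts) and was not called, at a log2 change of −0.13 by the authors' deposited table (adjusted p = 0.118).

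Of 17 tested genes of the proton pump, the V-ATPase, 4 rose (23.5%) and 5 fell (29.4%), shares near the 21.3% and 23.2% of all tested genes, with a median log2 fold change of 0.05. TCIRG1, an alternative membrane subunit, fell to 58.5% of scramble per the authors' deposited table (adjusted p = 8.84e-15), while ATP6V0E1 and ATP6V1B2 rose 1.60-fold and 1.29-fold (adjusted p = 2.57e-10 and 0.000115). Of 14 genes of the Rag, Ragulator and folliculin control of TFE factors, 2 rose (14.3%) and 3 fell (21.4%), which is no more than the share of all tested genes in either direction. RRAGD, a Rag GTPase, and LAMTOR2, a Ragulator subunit, fell to 53.0% and 51.2% of scramble by the authors' deposited table (adjusted p = 9.46e-17 and 1.68e-09). FLCN, folliculin, rose 1.33-fold by the authors' deposited table (adjusted p = 0.000444).

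**Figure D4:**
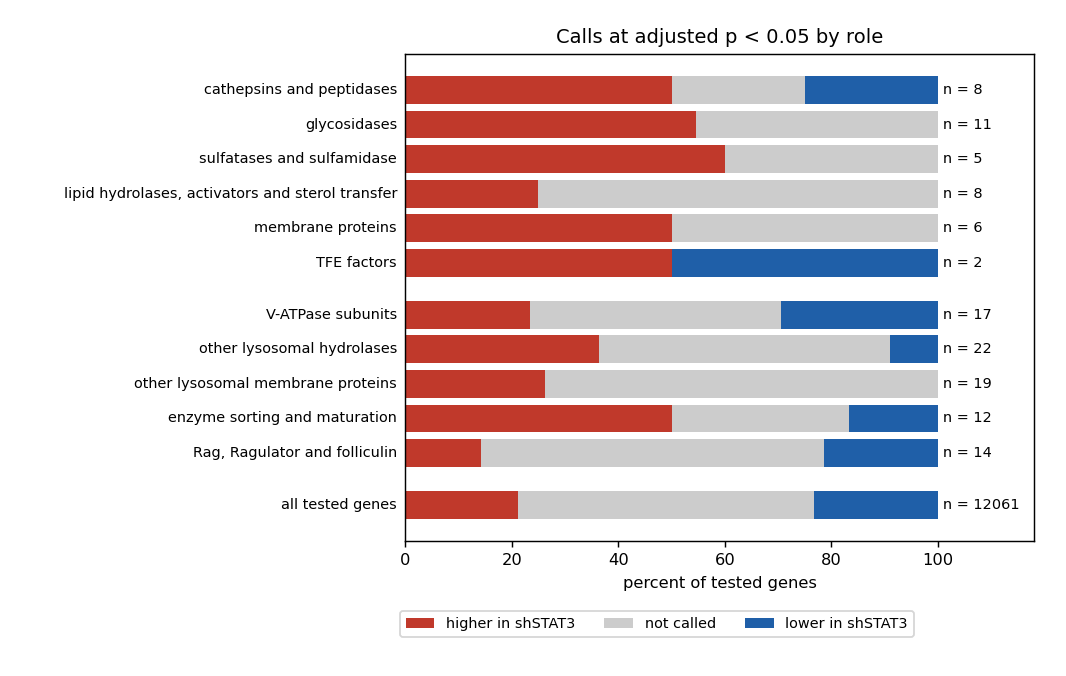
Share of tested genes that rose, were not called or fell in shSTAT3 cells (adjusted p under 0.05), for the 6 roles of the members, the 5 lists of other lysosomal genes and all 12061 tested genes. Among the members' roles only the peptidases (2 of 8 tested) and the TFE factors (1 of 2 tested) hold genes that fell, and all of the roles are short lists. The bars of the V-ATPase (23.5% higher, 29.4% lower) are close to those of all tested genes (21.3% and 23.2%).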

How the data were processed

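Per the labels' protocols, 6 REH cultures gave TruSeq RNA v2 libraries. Build hg38 and the tools DESeq2, featureCounts, Picard, Bowtie2, Trimmomatic and bcl2fastq 2.19 are listed, without settings, by the submitters' processing notes. Annotation, strand use and model: not given in the sources used here. In the deposited table the mean is a normalized signal, counts divided by DESeq2 size factors and averaged over all libraries by the authors. Its fold changes are log2 values computed by the authors, per the file headers, and appear shrunken toward 0. P-values and adjusted p-values are the authors', per the file headers. No count model was fitted here, since that needs values per library, and genes were called at the authors' DESeq2 adjusted p under 0.05. Depth per library is unknown, and the means sum to 11485068 normalized counts.

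Members and lists were chosen with earlier results of these data known. Tested genes are the 12061 with an adjusted p, with a lowest mean of 10.0. A further 74 genes have a fold change and no p, none of them a member. Standard errors are the fold change divided by the normal quantile of p, and 95% intervals, not adjusted for the number of genes, follow. Centring subtracts the median of tested genes in the same of 10 equal classes of GC content, length or mean. Recomputing the Benjamini-Hochberg adjustment gave the deposited values within 2.87e-07. Positions, lengths and GC content came from GENCODE 29 (GRCh38), which matched all 42 members and 94.4% of tested genes, and promoters from RefSeq (GRCh38.p14). All members are named. The other genes are STAT3, the 3 called genes of smallest adjusted p in each list and the 3 markers of highest mean per marker list. Of these genes, 1 is not reported here. VPREB1, CD34, IGF2R and the overlap partners were added after their values were seen. So were the monocyte and macrophage markers below the 3 of highest mean, and AIF1, MPO and ITGAM beside CTSS. Scripts were tested on simulated data. The tools were scipy 1.17.1, numpy 2.4.6, matplotlib 3.10.9 and pandas 2.3.3 under Python 3.11.15.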

Additional observations from a re-analysis of the deposited data

How the results depend on the processing

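No paired analysis was possible because the deposited table has no values per library, and for the same reason no replicate could be left out. The counts of 19 members higher and 3 lower became 16 and 2 at an adjusted p under 0.01, 21 and 3 under 0.1, 19 and 3 at a mean of at least 50, 18 and 3 with no filter on the mean, and 18 and 2 without GUSB, IDS and CTSL. With a minimum of 1.5-fold they were 7 and 1, where 6.96% and 10.4% of all tested genes passed. The 84 tested other lysosomal genes went to 12 higher and 4 lower from 25 (29.8%) and 12 (14.3%). Without that minimum, 21.3% and 23.2% of all tested genes were called in those directions. Shares of all tested genes were not computed for the other settings, whose counts show only how the calls of the list moved. Centring, chosen for the counts after seeing the data, gave 20 and 3 on genes of like mean, 17 and 4 on genes of like GC content and 20 and 3 on genes of like transcript length. The median log2 fold change of the members lay between 0.16 and 0.24 over the settings run. Under GC centring HEXA, CD63 and TFE3 lost their calls and GUSB and LIPA gained one (19 of 22 calls kept). FUCA1, not called in any setting, changed sign at −0.0038 on genes of like GC content and −0.014 on genes of like length. The cause was not tested. Low means limit CTSH, CTSZ, SMPD1 and MITF.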
